A study of Mus musculus with 31 samples.

Results

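The cytosolic ribosomal protein genes were followed in 31 single cells from mouse lung. Members were taken by name: a row of the deposited tables belonged to the set if its Ensembl identifier mapped to a symbol made of Rpl, Rps or Rplp and a number, with or without a closing letter, or was Rpsa, and if GENCODE typed it as protein-coding. Of 47069 rows, 82 carried such a symbol and 80 were typed as coding, 49 of the large subunit and 31 of the small subunit. The pseudogene-typed Rps4l and Rpl6l were left out. Some genes of ribosomal proteins have other kinds of symbol, such as Rps3a1, Fau and Rack1, and are given beside the members where they matter.

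All cells were of 1 group. They came from the right lung lobes of 10 week old Csf1r-GFP mice, in which the Csf1r reporter marks monocytes and macrophages but also other myeloid cells, and were collected 7 days after a sham operation that opened the chest. The sort was labelled CD45+, CSF1R-GFP+ and F4/80+, with Ly6G named without a sign. No second condition and no animal is named, so the 31 cells count as 1 sample. Every value below describes these cells, and no p-value can be given.

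A ribosome is built from ribosomal RNA and a fixed set of proteins. The small subunit reads the mRNA, and the large subunit joins the amino acids and guides the new chain out through its exit tunnel. Most of the proteins are present in ribosomes in equal amounts, with the acidic stalk proteins in more copies. Their mRNAs are short and abundant, and in mammals they begin with a run of pyrimidines, the 5′ terminal oligopyrimidine tract, through which the mTOR pathway controls their translation. The same mRNAs have been copied back into the genome many times, which has left processed pseudogenes and intronless copies with nearly the same sequence.

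Runs of pyrimidines were searched around the annotated starts of the members. RefSeq start-site windows on GRCm38.p6 were found for 60 of the 80 members. In the stretch from 50 bases before to 50 bases after the start, a C followed by at least 7 more C or T bases on the gene's strand was found in 51 of 60 members, or 79.2% of their 72 windows, against 28.8% of all 32851 windows. Such a run began within 10 bases of the annotated start in 20 of 60 members, or 27.8% of their windows, against 7.25% of all windows. The shorter string CTTTCC, which can lie inside such a run, was found on the gene's strand in 30.6% of member windows and 4.69% of all windows. CCGGAAG, searched on both strands, was found in 18.1% and 5.21%, and TATAAA on the gene's strand in 5.56% and 3.4%. The 30-base windows below, 5′ to 3′ on the gene's strand with the pyrimidine run in capitals, are those of 3 genes among the highest in these cells and of 3 genes whose own rows were low or empty.
Rps27 (chr3:90213629-90213658, minus strand): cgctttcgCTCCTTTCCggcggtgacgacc
Rps9 (chr7:3704028-3704057, plus strand): cgccttgtCTCTCTTTgtctcgggcctgag
Rplp2 (chr7:141447639-141447668, plus strand): gtcagcgtCTTCCTTTCgccgccggacgcc
Rpl5 (chr5:107900500-107900529, plus strand): tacagccaCTCTTTCTCacgtcgcttgcgt
Rpl12 (chr2:32961732-32961761, plus strand): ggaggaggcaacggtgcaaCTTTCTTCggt
Rps12 (chr10:23787180-23787209, minus strand): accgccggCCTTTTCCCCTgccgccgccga
The run nearest to the start began 2 bases before it in Rps27, 5 in Rps9, 4 in Rplp2 and 20 in Rpl5, and at base 9 of the transcript in Rps12 and base 40 in Rpl12. Other members among the 10 highest had their nearest run farther off. It began 16 bases before the start in Rpl13, at base 25 in Rpl37a and at base 41 in Rpl41. In Rps19 it began at base 42 or 43 bases before the start, in different windows. A relation of this distance to the level of a gene was not tested. A match is a string of letters in a window, not a measured start of the mRNA.

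Most members also have copies, which bear on several values below. A row was called a copy of a member if its transcripts held at least 10% of the 50-base stretches of the member's coding transcripts. Of the 80 members, 68 had a copy among the rows of the tables, and in 19 the whole coding part stood unchanged in another row. Copies of other genes were not searched, so no share over all rows can be set beside these counts. The first 60 coding bases of 4 members, with the start codon in capitals, are printed here because each was found letter for letter in a copy that held most of the joint counts.
Rpl10 (also in Rpl10-ps3): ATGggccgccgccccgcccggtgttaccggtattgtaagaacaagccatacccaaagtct
Rpl5 (also in Gm15500): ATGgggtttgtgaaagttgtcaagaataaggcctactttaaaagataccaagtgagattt
Rpl12 (also in Gm10275): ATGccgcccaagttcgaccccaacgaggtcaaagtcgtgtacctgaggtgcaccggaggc
Rps12 (also in Rps12l1 and Rps12-ps3): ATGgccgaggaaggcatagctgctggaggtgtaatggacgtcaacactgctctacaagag
All 642 coding bases of Rpl10, 891 of Rpl5 and 495 of Rpl12 were identical in these copies. For Rps12, 396 of 411 coding bases aligned, all of them identical, with 1 gap. A read that falls inside such a stretch matches both rows equally well.

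The libraries fell into sets that differ widely in these genes. Total expected counts ranged from 120835 to 4059833 per cell. In 21 libraries at least 80% of counts lay on nuclear protein-coding genes, and in the other 10 the share was 32.8% to 61.6%. The 20 cells with Lyz2, the lysozyme gene of monocytes and macrophages, at FPKM 1000 or more were all among the 21; the lowest of them had 1229 FPKM and the highest cell below the line 553 FPKM. The remaining one of the 21, cell F11, had Lyz2 at 0. The member genes' counts are themselves part of the coding share, and the 80% line was set after the data had been seen. Apart from Lyz2, on which the 20 cells were chosen, the pan-leukocyte and myeloid markers Ptprc, Tyrobp, Fcer1g, Csf1r and Adgre1 were each present in at least 15 of them, while all T cell, NK cell, epithelial and erythroid markers searched were at 0. The summed FPKM of the 5 neutrophil markers was 0 to 1594 with a median of 2.31. Of these 5, 1 was present in at least 10 of the 20 cells, Ly6g in 7, and S100a9 and Retnlg in none. The summed FPKM of B cell markers was 0 to 152, of endothelial markers 0 to 120 and of fibroblast markers 0 to 4.76. Adgre1, which encodes the sorted F4/80, was present in 15 of 20. Of the 10 low-coding libraries, Csf1r was present in 7, Ptprc and Tyrobp in 4 each, Fcer1g in 2 and Adgre1 in 1. Their summed FPKM reached 653 for B cell, 335 for epithelial and 62.9 for T cell markers, with medians of 11.7, 0 and 0. What cells these libraries came from was not tested.

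Ribosomal protein genes took a substantial and variable share of each Lyz2-high cell. Their share of all expected counts was 2.83% in the lowest of the 20 cells (F1), 5.85% at the median and 9.9% in the highest (A6), with a mean of 6.06% ± 2.05 (SD over 20 cells). Cells H5 and H8 were also low, at 2.85% and 3.56%. The highest cell thus had 3.49 times the share of the lowest. Cell F11, without Lyz2, had 8.66%. In the 10 libraries of low coding share the members held 0.273% to 0.866% of counts, and no value of this set overlapped the 20. These libraries also had fewer counts (median 373305 against 1591648 in the 20), a larger mitochondrial share (6.34% against 2.13%, up to 19.9%) and more genes at FPKM 1 or more (3278 against 2415), and the part of these measures in the low share was not tested. Against nuclear protein-coding counts alone the ranges were 2.99% to 11.3% and 0.558% to 1.99%, which also did not overlap.

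**Figure D1:**
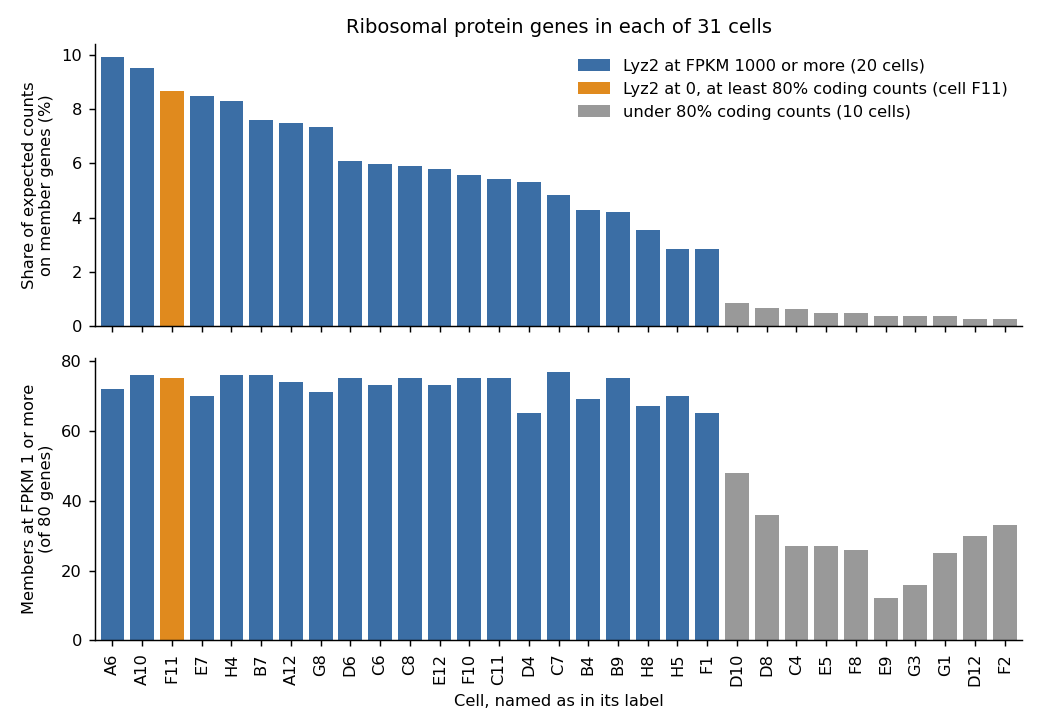
Share of expected counts on the 80 member genes (percent, upper bars) and number of members at FPKM 1 or more (lower bars) in each of the 31 cells, ordered by share. The 20 Lyz2-high cells lie between 2.83% and 9.9% with 65 to 77 members, cell F11 lies among them, and the 10 low-coding libraries lie between 0.273% and 0.866% with 12 to 48 members.

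Almost the whole set was detected in most of the 31 cells. With FPKM 1 or more counted as present, 76 of 80 members were present in at least 16 of the 31 cells, a level reached by 2.54% of all 47069 rows. In every one of the 20 Lyz2-high cells 39 of 80 members were present, against 0.304% of all rows. A further 30 members were found in 18 or 19 of the 20, 7 in 13 to 17, and 4 in 1 or none. Of the 100 rows with the highest median FPKM in these cells, 32 were members, though only 2 were among the top 20.

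The values of single genes were mostly either high or absent. Of the 1600 values of 80 members in 20 cells, 85.3% were at FPKM 100 or more, 9.31% were 0 and 5.25% lay from 1 to 100. In the 10 low-coding libraries 64.6% of 800 values were 0 and 19.6% reached 100. There, the 10 highest members of a library made up a median of 88.9% of its summed member FPKM, against 36.8% in the 20 cells. These few members differed from library to library: Rpl36 led in 2 of the 10, and Rpl17, Rpl26, Rpl28, Rpl32, Rpl41, Rpl7a, Rplp2 and Rps15 in 1 each.

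The highest levels per length belonged to very short genes. Rps27 and Rps29, both small zinc-binding proteins of the small subunit, led the order. Rps27 had 1326 FPKM in the lowest of the 20 cells, 5623 at the median and 11650 in the highest. Rps29 had 2198, 5578 and 11398 FPKM. The pair could not be separated, since Rps27 was the higher in 10 of 20 cells. Rpl41, which encodes a tiny basic peptide of the large subunit, followed at 1649, 3540 and 6338 FPKM and lay under Rps29 in 18 of 20 cells.

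Below these the order was close. Rps14, a gene lost in the human 5q- syndrome, had 496, 3535 and 8359 FPKM, and Rpl32 had 0, 3534 and 11080. Rps9, near the mRNA entry of the small subunit, had 950, 3355 and 9612 FPKM. Rplp2 (623, 3060 and 6025), Rpl13 (247, 3028 and 4932), Rpl37a (661, 2926 and 8747) and Rps19 (1115, 2919 and 6911), a gene mutated in Diamond-Blackfan anaemia, completed the 10 highest. From Rpl41 to Rps19, each gene exceeded the next in only 7 to 14 of 20 cells, so these neighbours did not differ beyond their spread. The 10 genes together made up 30.3% of summed member FPKM at the median.

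The order depends on the division by length. Effective lengths, computed here as counts divided by FPKM and depth, were 166 bases for Rps27, 209 for Rps29 and 319 for Rpl41. Over the 76 members with a median above 0, median FPKM and effective length had a Spearman correlation of -0.43, a description across genes that share libraries. Ranked by each cell's share of counts, which is not divided by length, only 5 of the 10 highest stayed, and Rps27, Rps29, Rpl41, Rplp2 and Rpl37a left the top 10 while Rpsa, Rplp0, Rps27a and Rps6 were among those that entered.

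**Figure D2:**
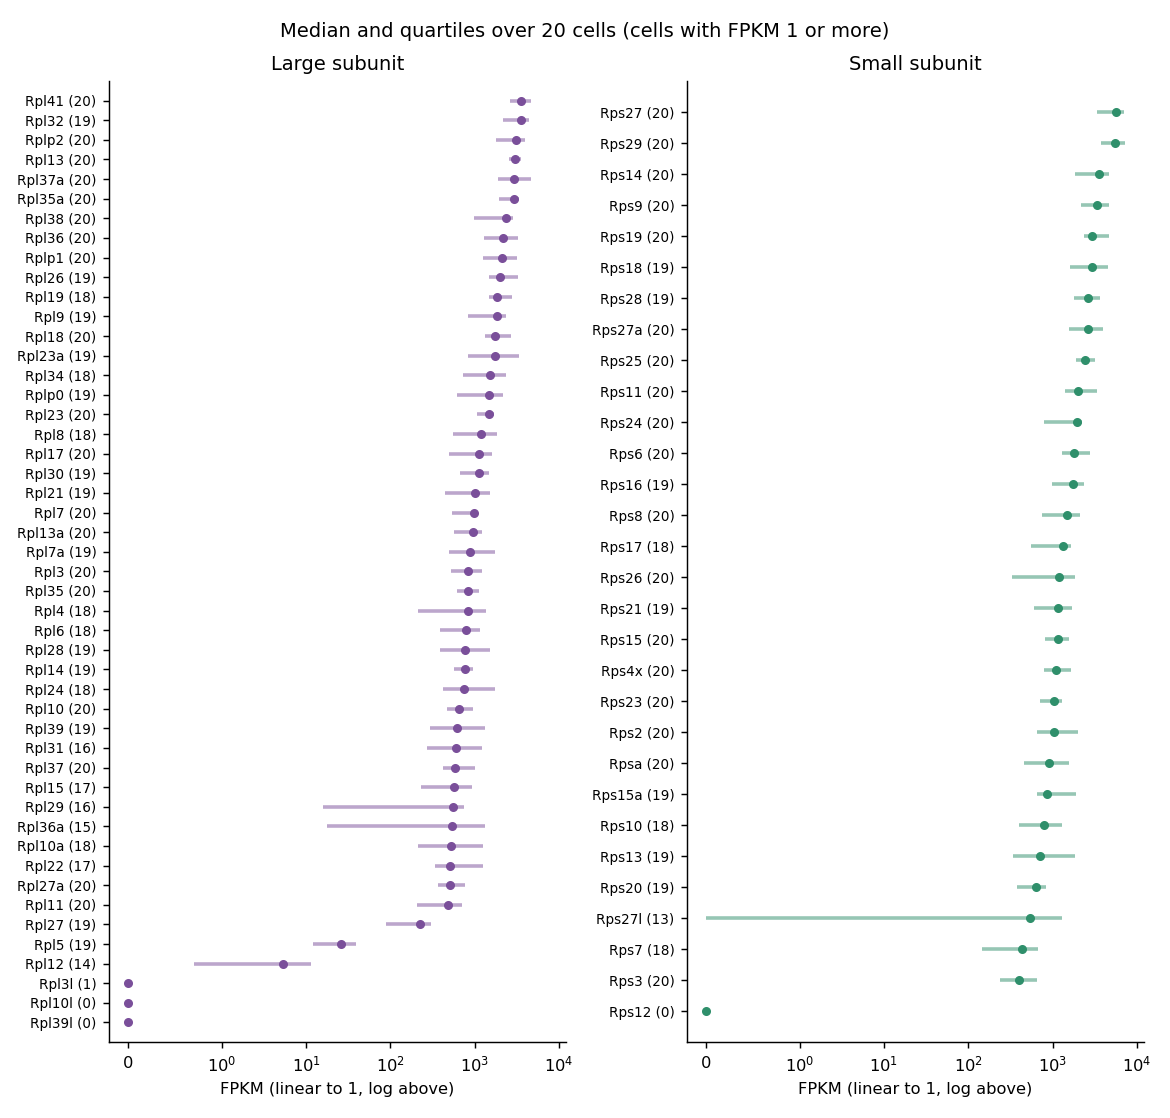
Median FPKM (points) and quartiles (bars) of large and small subunit genes over the 20 Lyz2-high cells, with the number of cells at FPKM 1 or more in brackets, on an axis linear to 1 and logarithmic above. The highest medians are those of Rps27 and Rps29, and those of Rpl27, Rpl5, Rpl12, Rpl3l, Rpl10l, Rpl39l and Rps12 stand apart at the low end.

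In the 20 cells 44 members had a median of 1000 FPKM or more, 30 had 100 to 1000, and 6 had less than 100. Those 6 were Rpl5, Rpl12, Rpl3l, Rpl10l, Rpl39l and Rps12. The other 4 of the 10 lowest were Rpl27 at a median of 227 FPKM (0 to 859), Rps3 at 405 (1.83 to 2348), Rps7 at 439 (0 to 2036) and Rpl11 at 488 (1.07 to 2855). Rps3 sits at the mRNA entry channel of the small subunit. Several of these low members had well-filled copies and others are tissue-restricted paralogs, but Rps3 is neither: it had no copy by the 10% rule and was present in 20 of 20 cells. Its effective length was 1644 bases, against 166 for Rps27, while its median expected count was 1067, against 1277 for Rps27. The part of length in its low median FPKM was not tested.

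The emptiest rows of the core set were those whose copies held the counts. Rps12, a small subunit protein, was at 0 in all 20 Lyz2-high cells and reached 223 FPKM in 1 low-coding library. The 0 allows up to 15% of cells with a read assigned to this row, and sets no limit on reads of the gene placed on its copies. In the same 20 cells its copy Rps12l1 had a median of 1101 FPKM (0 to 3674) and Rps12-ps3 of 291 FPKM (0 to 1719). The gene lies at chr10:23785183-23787275 and Rps12l1 on chromosome 7, in GRCm38 coordinates. Copies held 100% of the joint counts. With all copies added, the median was 1508 FPKM and 19 of 20 cells had a value of 1 or more.

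The 5S particle was split in the same way. Rpl5 and Rpl11 bind the 5S ribosomal RNA, and when free they bind and inhibit Mdm2. The row of Rpl5 had 0, 25.9 and 535 FPKM (lowest, median and highest of 20 cells), and that of Rpl11 had 1.07, 488 and 2855. Rpl11 was the higher in 18 of 20 cells. Gm15500, a transcribed processed pseudogene on chromosome 7, had a median of 816 FPKM (0 to 4256), and copies held 95.3% of the joint counts of Rpl5. With copies added, the medians were 825 FPKM for Rpl5 and 698 for Rpl11, so the gap seen between the single rows was not there.

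The stalk genes showed it for 1 of 4. The stalk binds elongation factors; Rplp0 is its base, Rplp1 and Rplp2 its acidic arms, and Rpl12 lies beside it. Rplp2 had a median of 3060 FPKM, Rplp1 2090 (433 to 5035) and Rplp0 1462 (0 to 4056). Rplp2 exceeded Rplp0 in 17 of 20 cells, and Rplp1 exceeded it in 16. The row of Rpl12 had 0, 5.29 and 95.8 FPKM, and was present in 14 of 20 cells. Its copy Gm10275 on chromosome 10 had a median of 497 FPKM (0 to 1347), copies held 95.8% of the joint counts, and the median with copies was 501 FPKM.

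Rpl10 and Rpl27 completed the 5 members with over 50% of joint counts on copies. Rpl10, which lies close to the peptide-joining centre of the large subunit and is X-linked, had a median of 658 FPKM (6.09 to 2207), and 74.1% of the joint counts were on copies. Rpl10-ps3 on chromosome 9 alone had a median of 2257 FPKM (1.39 to 6919). For Rpl27 copies held 81.9%, and the median moved from 227 to 1209 FPKM. Adding copies moved Rpl10 from rank 59 to rank 10 of 80 and Rps23, with 43.9% of joint counts on copies, from rank 41 to rank 8.

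Copies held over 10% of joint counts for 19 members and under 1% for 39 of the 68 members with a copy. Among the former, adding copies moved the median of Rpl27a from 510 to 1720 FPKM, of Rpl35 from 830 to 1962, of Rpl31 from 595 to 1533 and of Rps7 from 439 to 968. Over all members they held 9.99%. Rps27, at the top of the order, had 20% of joint counts on its intronless copy Rps27rt and moved from rank 1 to rank 2 when copies were added to every member. Summing rows adds FPKM values computed with different lengths. The library preparation does not mark strand, and how the authors' quantification divided reads between identical rows was not tested.

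**Figure D3:**
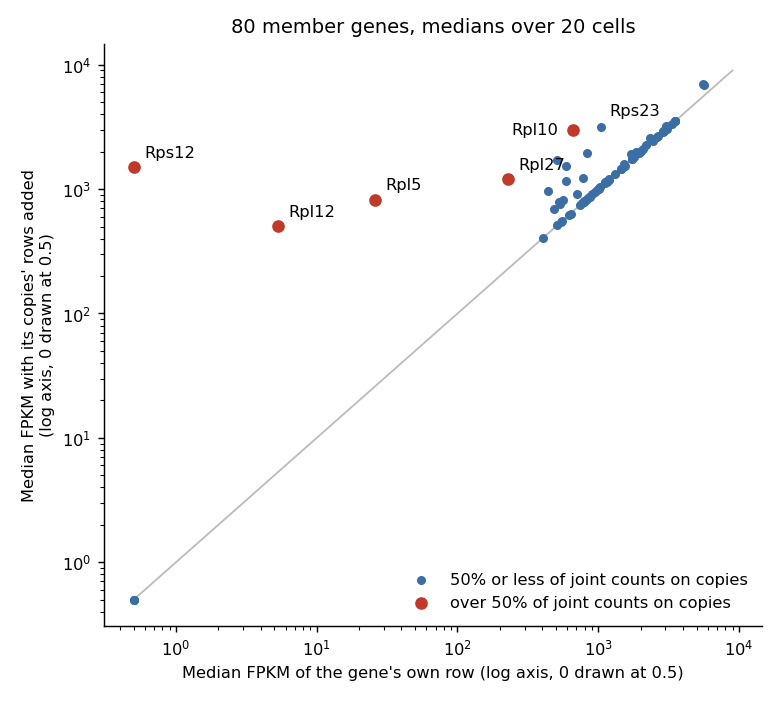
Median FPKM over the 20 Lyz2-high cells of each of the 80 member genes, by its own row (horizontal, log axis) and with the rows of its copies added (vertical, log axis), with the line of equal values. Rps12, Rpl12, Rpl5, Rpl27 and Rpl10 lie far above the line, and most genes lie on it.

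**Figure D4:**
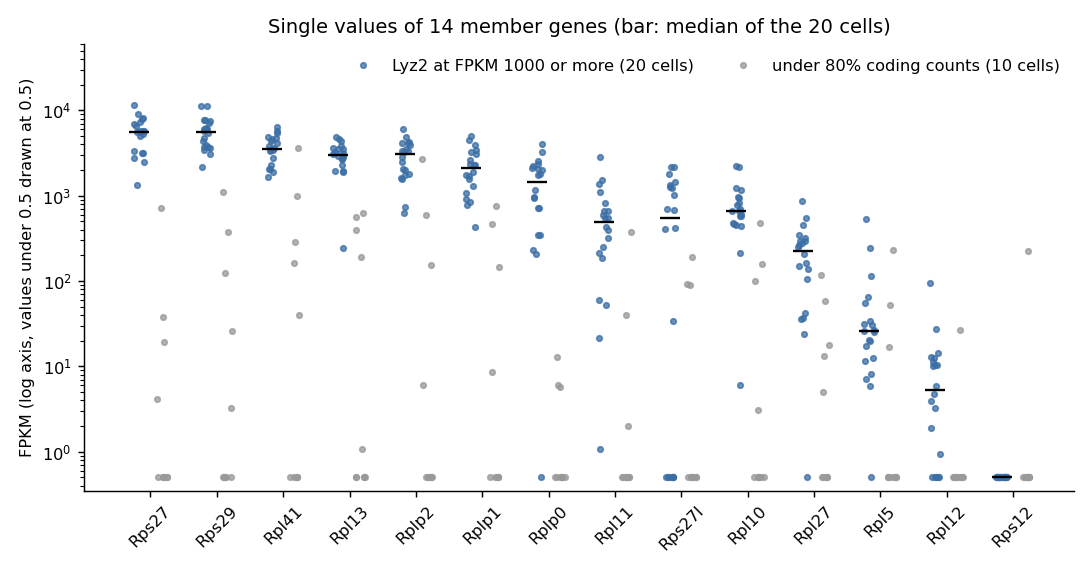
FPKM of 14 member genes in each of the 20 Lyz2-high cells (blue) and the 10 low-coding libraries (grey), on a log axis with values under 0.5 drawn at 0.5; bars are medians of the 20. Rps27 and Rps29 lie above 1300 FPKM in all 20 cells, and Rps12 is at 0 in all of them.

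The tissue-restricted paralogs were at or near 0. Rpl3l, the paralog of Rpl3 known from striated muscle, was present in 1 of 20 cells at 38.2 FPKM, while Rpl3, a protein of the peptide-joining centre, had 20.5 to 3305 FPKM with a median of 834. Rpl10l and Rpl39l, known from testis, were at 0 in all 31 cells, which allows up to 9.68% of cells with a read. Their common forms Rpl10 and Rpl39 were present in 20 and 19 of 20 cells. None of these 3 had a copy by the 10% rule. Rps4l, left out of the members as a pseudogene, was present in 1 of 20 cells at 778 FPKM, against a median of 1111 FPKM for Rps4x.

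Other paralogs were expressed beside the common gene. Rps27l, a paralog of Rps27 that p53 is known to induce, was present in 13 of 20 cells with 0, 545 and 2193 FPKM, and Rps27 was higher in 20 of 20. Rpl36al, an intronless relative of the X-linked Rpl36a, had the larger median of its pair, 1109 against 536 FPKM, and exceeded it in 14 of 20 cells while Rpl36a was higher in 4. Rpl22l1 had a median of 15.1 FPKM (0 to 2375) against 513 (0 to 1840) for Rpl22, and was the higher of the pair in 5 cells. Rpl7l1 was present in 7 of 20 cells with at most 133 FPKM, against a median of 978 for Rpl7.

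Rps27a encodes ubiquitin joined to a ribosomal protein and was present in all 20 Lyz2-high cells, with 501, 2606 and 6332 FPKM. Among the 8 ribosomal protein genes with other kinds of symbol, Rps3a1, Rps27rt and Fau were among those present in all 20 cells, and 7 of 8 were present in at least 10. Presence in at least 10 cells was reached by 3.04% of all rows.

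Small subunit genes were the higher per gene in every Lyz2-high cell. The mean FPKM over the 31 small subunit genes was 987 to 2952 per cell and that over the 49 large subunit genes 706 to 2386. The ratio of large to small was 0.594 in the lowest of the 20 cells, 0.707 at the median and 0.808 in the highest, and thus under 1 in all 20. It varied by 1.36 times while the share of counts varied by 3.49 times. In the 10 low-coding libraries the ratio ran from 0.519 to 8.98 and was under 1 in 1 of them. In the 20 cells the median ratio was 0.787 without the 5 shortest genes of each subunit, 0.731 with copies added and 0.671 from the median FPKM of each subunit. The large subunit mean includes the paralogs Rpl3l, Rpl10l and Rpl39l, at or near 0, and the small subunit mean includes Rps12, at 0. The ratio without these genes was not computed.

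**Figure D5:**
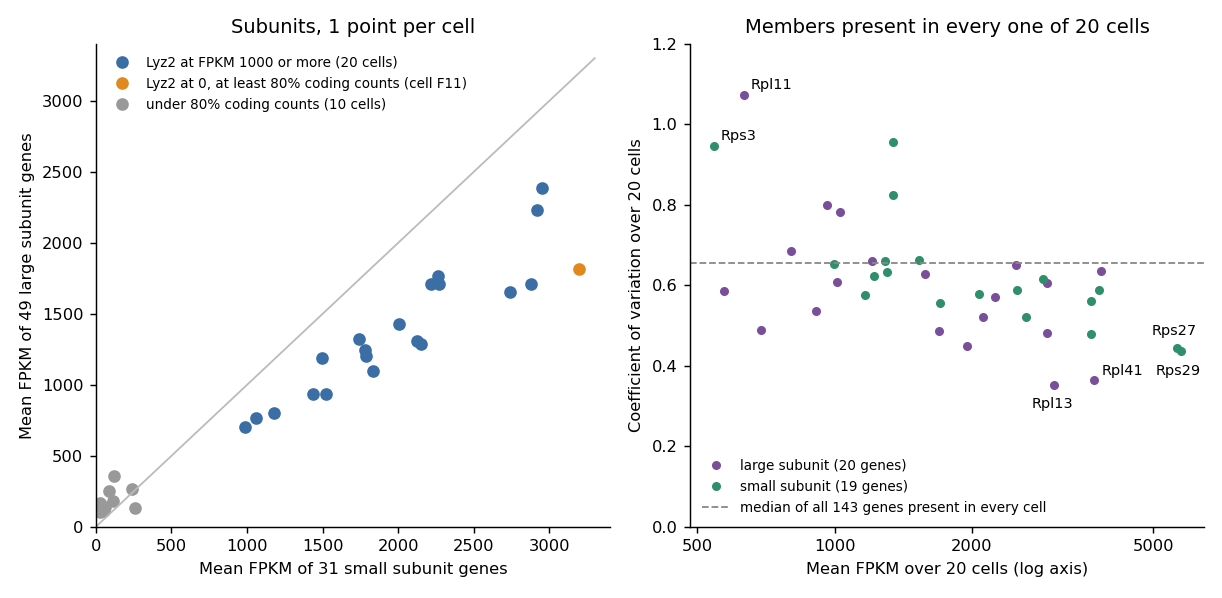
Left, mean FPKM of the 49 large against the 31 small subunit genes in each of the 31 cells, with the line of equal values; right, coefficient of variation against mean FPKM (log axis) over 20 Lyz2-high cells for the 39 members present in all of them, with the median of all 143 such rows dashed. All 20 Lyz2-high cells lie under the line on the left, and Rpl13 and Rpl41 vary least on the right.

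Among members present throughout, the SD over cells was about as large as the mean at most. The coefficient of variation (SD divided by mean of FPKM over the 20 cells) had a median of 0.589 over the 39 members present in all of them. Over all 143 rows present in all 20 cells it was 0.655, and 29 of the 39 members lay under that value. Rpl13 varied least, at 0.353, followed by Rpl41 at 0.364, Rps29 at 0.436, Rps27 at 0.445 and Rpl18 at 0.449. Rpl11 varied most, at 1.07, and Rps3 (0.947), Rps26 (0.825) and Rpl3 (0.801) were also high. Rps26 lies at the mRNA exit of the small subunit. The members that varied least were mostly among the highest and those that varied most among the lower ones.

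The members moved together weakly. Over the 20 cells, the 2850 pairs among the 76 members present in at least 10 of them (3.04% of all rows reached that presence) had a median Spearman correlation of 0.205, and 78.3% of pairs were positive. For all pairs among the 1431 rows that passed the same minimum the median was 0.0152 and 52.4% were positive. The members were present more often than these rows: 39 of the 76 were in all 20 cells, against 143 of the 1431. The part of presence in the difference between the medians was not tested. After each cell was scaled to its own summed member FPKM the median among members was -0.0045, a value that this scaling pushes towards 0 by construction. Genes in these pairs share libraries and depth. Set against the summed FPKM of the other members, 69 of 77 members had a positive correlation. It ran from 0.83 for Rps18, 0.752 for Rpl11 and 0.743 for Rpl37a down to -0.191 for Rpl35a. The same correlation was not computed for other rows, so this count has no background beside it.

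The share of counts on members was set against other measures of each library. Over the 20 cells its Spearman correlation was -0.14 with total counts, -0.322 with the number of genes present, 0.171 with Lyz2, -0.465 with the coding share of counts and 0.469 with the mitochondrial share. For the coding share Pearson's r was -0.367, and -0.56 without the 2 cells farthest from its median. Pearson's r for the mitochondrial share was 0.488, and 0.259 without the 2 cells farthest from its median. These are descriptions over cells of 1 sample, and shares of the same total are not independent of each other.

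Cells with the monocyte gene Ly6c2 had the larger shares. In the 10 Lyz2-high cells with Ly6c2 at FPKM 1 or more the members held 4.22% to 9.9% of counts (median 7.54%), and in the 10 without it 2.83% to 6.07% (median 5.06%), so the ranges overlapped. With C1qb, a complement gene of macrophages, the share was 2.83% to 5.99% in 6 cells and 4.22% to 9.9% in the 14 without. With H2-Aa, an MHC class II gene, it was 2.83% to 8.29% in 13 cells and 4.22% to 9.9% in 7. These splits use the same cells: no cell had both C1qb and Ly6c2, and all 6 cells with C1qb had H2-Aa. Median total counts were 1233765 with Ly6c2 and 1812008 without it. They were 2177839 with C1qb and 1433691 without it, and 1837295 with H2-Aa and 1079787 without it. In each split the cells with the lower median share were thus the deeper ones, and the part of depth in the differences was not tested.

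Gene by gene the same direction was seen. Of the 76 members present in at least 10 of the 20 cells, 70 had a higher mean FPKM in the cells with Ly6c2, against 61.4% of all 1431 such rows, with a median ratio of 1.54 against 1.23 over those rows. With C1qb, 6 of 76 members had the higher mean (35.5% of the rows), and with H2-Aa 14 of 76 (45.2% of the rows). At 1.5 times or more, 40 of 76 were higher with Ly6c2, against 39.5% of the rows, and 2 of 76 were lower, against 24%. With C1qb, 48 of 76 were lower by that factor, against 47.3% of the rows, and 1 of 76 higher, against 21.1%. With H2-Aa, 30 of 76 were lower (31.7% of the rows) and 6 higher (29.4%). As shares of the 76 members, the counts in the prevailing direction were 52.6% for Ly6c2, 63.2% for C1qb and 39.5% for H2-Aa, not far above those backgrounds, while the counts in the opposite direction lay below theirs. The ratio of large to small subunit genes overlapped in each split, with 0.594 to 0.808 with Ly6c2 and 0.598 to 0.798 without.

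The rest of the translation machinery was detected far less evenly. Of all 47069 rows, 3.04% were present in at least 10 of the 20 cells and 0.304% in all. Of 11 genes in a list of elongation factors and other translation-related genes, 7 were present in at least 10 of the 20 cells and 4 in all. These 4 were Tpt1 (median 3377 FPKM), Eef1a1, which brings tRNAs to the ribosome (2120), Naca, of the nascent chain complex (566), and Eef2, which moves the ribosome along the mRNA (131). Tpt1 and Naca are not elongation factors. Of 29 initiation genes 14 were present in at least 10 cells, and those found most often were Eif1 (2750 FPKM) and Pabpc1 (670) in 20 cells, and Eif5a (511), Eif4a1 (94.4) and Eif3a (25.3) in 17.

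Genes that build ribosomes or signal to them mostly had a median of 0 in the 20 cells. Of 25 ribosome biogenesis genes, 3 were present in at least 10 of 20 cells: the nucleolar genes Ncl in 16 (median 83.1 FPKM) and Npm1 in 15 (199), and Nop10, of the pseudouridine-forming particles, in 10 (3.57). The count of 3 of 25 is not below the 3.04% of all rows with such presence. Fbl, the methyltransferase of the nucleolus, was present in 8 with a median of 0, and Nop2 and Polr1b in none of the 20 cells. In the 10 low-coding libraries Polr1b was present in 7 and Nop2 in 0. Of 12 genes of the mTOR axis none reached 10 cells. Since only 3.04% of all 47069 rows did, this count does not set the list apart from other rows. Eif4ebp1 and Pdcd4 were present in 9, Larp1, which binds the oligopyrimidine tract, in 8, Rheb in 6, and Mtor itself in none. At this depth a low mRNA can be missed in a single cell, so a gene listed at 0 is not shown to be absent.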

How the data were processed

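Single sorted lung cells were captured on a microfluidic chip, and polyadenylated RNA was amplified with SMARTer chemistry and made into Nextera XT libraries, per the labels' protocols. CASAVA 1.8, Trimmomatic, RSEM and GRCm38 are named, per the submitters' processing notes; how they were set, and which annotation was used, is not given in the sources used here. Deposited by the authors were RSEM expected counts (estimated reads per gene, not whole numbers) and FPKM (scaled to length and library depth), both for 47069 rows. Without molecular identifiers, amplified molecules count as several reads. Of 75 columns with counts, 44 matched no sample and were not used. A symbol was found for 46488 identifiers, and rows without one held 0.274% of counts. Types, coordinates and transcripts came from GENCODE M21 (GRCm38), and start windows from RefSeq on GRCm38.p6, 1-based.

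The analysis used Python 3.11.15 with numpy 2.4.6, pandas 2.3.3, scipy 1.17.1, Biopython 1.88 and matplotlib 3.10.9. It had 1 sample, so no test was made; ranges, medians and SDs over cells describe these cells. A gene was present at FPKM 1 or more. Values of 0 cells are read with a limit of 3 counts, which covers counting error only. The members, lists and Lyz2 line were chosen with earlier results of these data known. Named genes were the 10 highest and 10 lowest members by median FPKM, members in fewer than 10 of 20 cells, the 5 highest and lowest in variation, the fixed paralog pairs, stalk, 5S and ubiquitin genes, and in each translation list the 4 genes in most cells (ties by median FPKM) and those in none. The copies, the motifs, Rps23, Rps18, Rpl35a, Rpl27a, Rpl35, Rpl31, Eif3a, the distance of runs from the start, the leading members of low-coding libraries and those that entered the order by counts were picked with their values in view. Doublets were not called. The results of some genes that the rule names are not reported, though counts over the set include them. The highest Pearson correlation of log2(FPKM + 1) between any pair of cells was 0.564. The computation of member share, subunit ratio, pairwise correlation and thinning was checked on simulated counts drawn from the pooled profile of the 20 cells. The simulation held no dropout and no division of reads between copies, so it checks the arithmetic only. Alternatives were other presence minimums, thinning, Lyz2 lines, denominators, scalings and added copies.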

Additional observations from a re-analysis of the deposited data

How the results depend on the processing

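The 8 summaries of the member genes were recomputed under 49 alternatives. Of these, 44 kept the direction and stayed within 1.5 times (counts) or 1 SD (other values) of the reported value. The SD was over Lyz2-high cells for share, summed FPKM and subunit ratio. It was over members for the coefficient of variation and over gene pairs for the correlation. For the correlation it was 0.24, more than the value itself, so any positive value near 0 would have been kept. A count of 76 members, close to the whole set, could not have risen 1.5 times. Some of the 44 could thus hardly have failed, and their number does not measure how firm the results are. The number of members present in every Lyz2-high cell was 39, 25 at FPKM 100 or more, and 0 when the Lyz2 line was lowered to FPKM 100, which adds 5 low-coding libraries. The ratio of large to small subunit genes was 0.787 without the 5 genes of shortest effective length in each subunit. Of the 10 highest members, 5 stayed by the share of counts, not divided by length. The median correlation among members, 0.205, was -0.0045 after scaling to the members' own sum, a scaling that removes a shared total by construction. The 21 libraries of high coding share and the addition of copies, both chosen after the data had been seen, gave 5.91% and 6.42% for the median share of counts (5.85%), and 39 and 42 for the members present in every cell. Thinning to 521480 counts gave 38 such members and thinning all 31 cells to 120829 counts gave 75 members in at least 16 cells, against 76. No paired analysis was possible because there is 1 group and the labels name no replicate pairs. Depth limits what a 0 in 1 cell shows, and identical copies limit the values of single members.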
